A study of Oncorhynchus mykiss with 8 samples.

Results

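Of 43603 probes on the array, 5 carry the platform symbol of a fast muscle contractile or calcium-buffering gene. Of these, 4 are for mlc-2 and 1 is for prvb, and each was followed in muscle and liver of small and large rainbow trout. The probes were chosen by symbol in the platform annotation, in any letter case, a rule that holds no probe value. The symbols themselves were chosen with earlier results of these data known. That annotation gives 221 probes a symbol, of which 117 carry a name other than a locus placeholder. The fish (Oncorhynchus mykiss, Lyndon strain) were all offspring of neomales, genetic females that have been masculinised and serve as fathers, and were reared at one station and fed to appetite. Their age is not given in the labels. There were 4 groups of RNA, from liver of small fish, liver of large fish, muscle of small fish and muscle of large fish. Each RNA pool held mRNA of 5 fish, so the values of single fish are not seen. Each of the 8 arrays compared a small pool with a large pool of the same tissue, one labelled with the Alexa Fluor 555 dye and the other with the 647 dye. Each pool pair appears, by the titles, once with the large pool in 555 (a forward array) and once with the large pool in 647 (a reverse array), which leaves 2 pool pairs per tissue. That these are separate pools is a reading of the titles. The p-values measure only the spread between them, except in 2 fits that enter all 8 arrays singly.

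The myosin light chain 2 encoded by mlc-2 is the regulatory light chain that sits on the neck of the myosin head. In skeletal muscle its phosphorylation tunes how strongly the fibre responds to calcium. Parvalbumin, encoded by prvb, is a soluble calcium-binding protein that takes up calcium after a twitch and so speeds relaxation. In fish it is very abundant in white muscle, the fast fibres used in bursts of swimming, and it is the main fish allergen. Neither protein belongs to the secretory or metabolic work of the liver.

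The deposited value of a probe on an array is a log2 ratio of both channels, so it says nothing about how much transcript a tissue held, and muscle can be set against liver only by comparing ratios. For the same reason the identity of the tissues cannot be checked from marker levels. No label or header states which channel is the numerator. The values are therefore given first as deposited and then as turned values, in which the sign of the reverse array is changed before both arrays of a pool pair are averaged. A probe whose deposited value changes sign when the dyes are exchanged has 1 sign once turned. A positive turned value of a pool pair thus means that the deposited value was higher on the forward than on the reverse array. The forward value itself can then have either sign, and the text names neither size class as the higher one. Liver arrays had 2296 to 3035 empty cells among all probes and muscle arrays 428 to 845. Across probes, the standard deviation of an array was 0.55 to 0.92 in liver and 0.32 to 0.33 in muscle. No intensity was used here, so whether a probe lay near background is unknown.

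The annotation ties the probes A_05_P248939 and A_05_P488482 of mlc-2 to the accession NM_001123716 and the probes A_05_P249999 and A_05_P488692 to AJ557152. The prvb probe A_05_P332207 belongs to EH033431. Of these accessions 0 matched the reference gene table of assembly USDA_OmykA_1.1, and so did 0 of the 5 probes by symbol, so no position is given. Whether the probes were designed on trout sequence, and whether those of mlc-2 detect 1 gene or several similar copies, was not tested.

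In muscle, 3 of the 5 probes changed sign with the dyes in both pool pairs, so that all 4 turned values were positive: A_05_P488692 and A_05_P248939 of mlc-2 and the prvb probe. Among all 41652 muscle probes tested, 8.83% had 4 positive turned values. The turned means of these probes ran from 0.27 to 0.47 on the log2 scale, which are ratios of 1.21-fold to 1.38-fold. The other mlc-2 probes lay nearer to 0, and none of the 5 passed an adjusted p of 0.05.

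Probe A_05_P488692 of mlc-2 had the largest turned mean of the 5 in muscle. Its deposited log2 ratios were 0.66 and 0.79 on the forward arrays of replicates 1 and 2, and -0.29 and -0.12 on the reverse arrays. The forward and reverse values did not overlap, and the forward ones lay farther from 0. Turned, the pool pairs gave 0.47 and 0.46, a mean of 0.47 ± 0.01 (SD, n = 2 pool pairs), or 1.38-fold. The 95% interval from limma, which shares its spread with liver, was 0.03 to 0.90, and the adjusted p over all probes was 1. Of all muscle probes 2.86% had a turned mean of larger size. It was the only 1 of the 5 with an unadjusted p under 0.05 (0.0402, adjusted p 1 in limma), against 4.53% of all muscle probes. That count rests on the spread shared with liver. With muscle fitted alone 3 of the 5 had such a p, the same 3 that kept 1 sign once turned, against 12.1% of all muscle probes, and after scaling the arrays to one spread there were again 3 of 5, against 10.9%. The count varied over other fits. With the deposited values averaged without turning, the lowest unadjusted p of the 5 was 0.134 in limma, and on the reverse arrays alone 0.107. On the forward arrays alone only A_05_P488692 was under 0.05 (0.0026 in limma), as were 2553 of 42257 muscle probes. With pool pairs as random blocks, A_05_P248939 and A_05_P488692 had 0.00697 and 0.0152 in limma, but prvb had 0.0592. In that fit 2961 of 41652 muscle probes were under 0.05. With the arrays as separate and a dye term, the same 3 probes had 0.0225, 0.0249 and 0.0618 in limma. There 2105 of 41652 muscle probes were under 0.05. Both of these fits enter the 2 arrays of a pool pair singly, although they hold the same RNA. The random block gave these arrays a correlation of -0.149, so it did not widen the standard errors. The p-values of both fits are thus not on the same footing as those from pool pairs.

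Probe A_05_P248939 of mlc-2 gave 0.28 and 0.31 on the forward muscle arrays and -0.38 and -0.21 on the reverse ones. These values lay almost evenly on both sides of 0, and their plain mean was 0.00 ± 0.07. The turned mean was 0.30 ± 0.05 (n = 2), or 1.23-fold, with a 95% interval of -0.01 to 0.60 and an adjusted p of 1 in limma. In size, 9.0% of the muscle probes had a larger turned mean.

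The muscle values of prvb were 0.30 and 0.62 on the forward arrays and -0.14 and -0.03 on the reverse arrays. The positive arrays were again farther from 0 than the negative ones. The turned pool pairs were 0.22 and 0.32, with a mean of 0.27 ± 0.07 (n = 2), or 1.21-fold. Its 95% interval was -0.05 to 0.59 and its adjusted p 1 in limma, and 10.7% of the muscle probes had a turned mean of larger size.

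The remaining mlc-2 probes did not change sign with the dyes in both pool pairs. A_05_P488482 was positive on all 4 muscle arrays as deposited, at 0.02 on both arrays of replicate 1 but at 0.51 (forward) and 0.28 (reverse) on those of replicate 2. Such a run of 4 positive deposited values was seen in 5.57% of the muscle probes. The pool pairs thus differed more than the dye orientations did, and the turned mean was 0.06 ± 0.08 (n = 2), with a 95% interval of -0.23 to 0.35. A_05_P249999 had -0.32 and -0.18 in replicate 1 and -0.04 and 0.30 in replicate 2, each in the order forward and reverse. Its turned mean was -0.12 ± 0.07 (n = 2), the only negative mean of the 5, with an interval of -1.15 to 0.92 that takes its width from the spread of this probe in liver. Both probes had an adjusted p of 1 in limma.

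**Figure D1:**
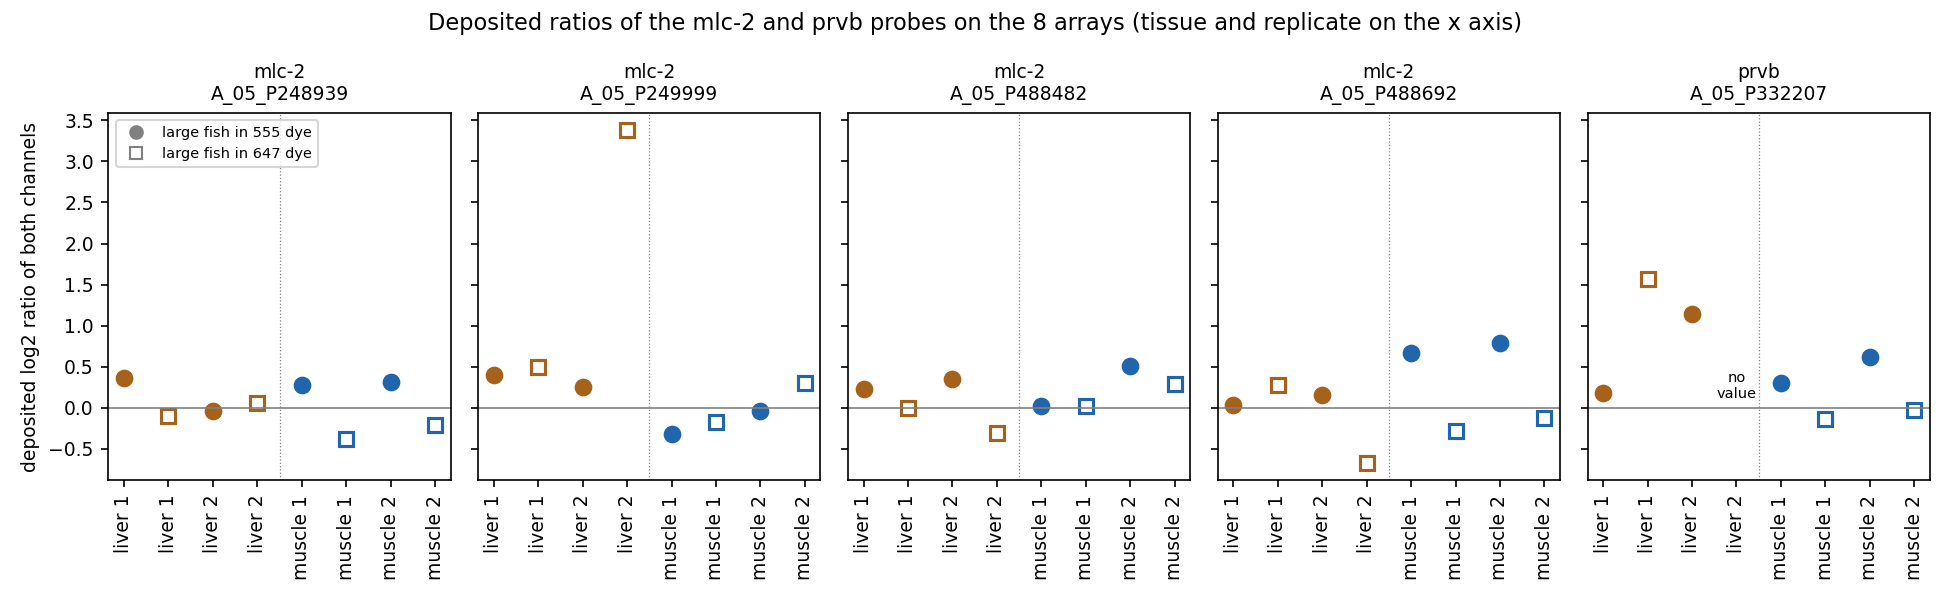
Deposited log2 ratio (y axis) of each probe on each array (x axis, tissue and replicate), with filled circles for forward and open squares for reverse arrays; the cell of prvb on the last liver array is empty. In muscle, circles lie above 0 and squares below 0 for A_05_P248939, A_05_P488692 and prvb, and the liver value of 3.39 at A_05_P249999 stands far above all others.

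Over the members, 4 of 5 turned means were positive in muscle, against 53.3% of all muscle probes. Their median was 0.27, beside 0.01 for all muscle probes, and the median size of a turned mean was 0.27 beside 0.08. In muscle 0 of the 5 passed the adjusted p of 0.05 in limma, and so did 0.0% of all probes. The probes share a symbol or a fibre type and the same RNA pools, so they are not independent repeats of one result.

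The alternative reading takes the deposited values as already turned by the authors, so that the plain mean of the arrays is the size ratio. On that reading the muscle means were 0.26 ± 0.10 for A_05_P488692, 0.21 ± 0.27 for A_05_P488482, 0.19 ± 0.15 for prvb, 0.00 for A_05_P248939 and -0.06 ± 0.27 for A_05_P249999. The adjusted p of each was 1 in limma. The sign of no muscle mean changed between the readings, but the size of A_05_P248939 rests wholly on the turn. Across all probes the correlation of the deposited values between the arrays of a pool pair was -0.21 and -0.04 in liver and -0.08 and 0.08 in muscle, so the exchanged arrays neither repeated nor mirrored each other closely.

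In liver the mlc-2 probes gave no shared pattern, and the value that departs most belongs to 1 probe on 1 array. A_05_P249999 had 0.40 and 0.50 in replicate 1 and 0.26 and 3.39 in replicate 2, the last on the reverse array. A value of 3.39 is a 10.5-fold ratio, and 1.57% of the probes on that array had a larger one in size. The other mlc-2 probes had 0.06, -0.31 and -0.68 on the same array, so they did not share it.

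All 4 liver values of A_05_P249999 were positive as deposited, as in 5.54% of the liver probes. Because the large value sits on an array that is turned, the turned pool pairs were -0.05 and -1.56, with a mean of -0.81 ± 1.07 (n = 2). The 95% interval was -1.84 to 0.23 and the adjusted p 0.303 in limma. As deposited, the mean was 1.13 ± 0.97, with an adjusted p of 0.474. On the forward arrays alone it was 0.33, with an adjusted p of 0.242. Sign and size in liver thus depend on that 1 array and on the reading of its direction.

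The other mlc-2 probes stayed nearer to 0 in liver. A_05_P488482 had 0.22 and 0.00 in replicate 1 and 0.34 and -0.31 in replicate 2, and a turned mean of 0.22 ± 0.15 (n = 2, 95% interval -0.07 to 0.51). A_05_P488692 had 0.03 and 0.28, then 0.15 and -0.68, and its turned pool pairs of -0.12 and 0.42 had opposite signs. A_05_P248939 had 0.36 and -0.10, then -0.04 and 0.06, and its pool pairs of 0.23 and -0.05 also differed in sign. Their turned means were 0.15 ± 0.38 and 0.09 ± 0.20. The adjusted p of these 3 probes lay between 0.313 and 0.645 in limma.

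For prvb the liver table holds 3 values, 0.17 and 1.57 in replicate 1 and 1.14 on the forward array of replicate 2. All 3 are positive as deposited, and both larger ones exceed its highest muscle value of 0.62. Within their arrays the 3 were about equally far out. The share of probes with a larger size was 4.52% for 1.57, 4.49% for 1.14 and 4.82% for 0.62. The cell of the reverse array of replicate 2 is empty, so replicate 2 gives no turned value and prvb has no test over both liver pool pairs. Replicate 1 alone gave -0.70 turned and 0.87 as deposited, whereas the forward arrays of both replicates gave a mean of 0.66, of the other sign than the turned value (adjusted p 0.229 in limma). With liver replicate 2 left out, the difference of the -0.70 of replicate 1 from muscle was -0.97. That fit takes the spread of the lone liver pool pair from muscle, so no p-value is given for it. The 2 arrays of replicate 1 hold the same RNA and differed by more than a log2 unit in plain value.

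In liver 0 of the 4 mlc-2 probes passed the adjusted p of 0.05 in limma and 0 had an unadjusted p under 0.05, against 0.0% and 20.4% of all 36053 liver probes tested. Turned means were positive for 3 of the 4, against 54.7% of all liver probes, and 4 positive turned values occurred in 0 of the 4, against 17.7%. The median turned mean of the 4 was 0.12, beside 0.04 for all liver probes, and their median size was 0.18 beside 0.20.

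**Figure D2:**
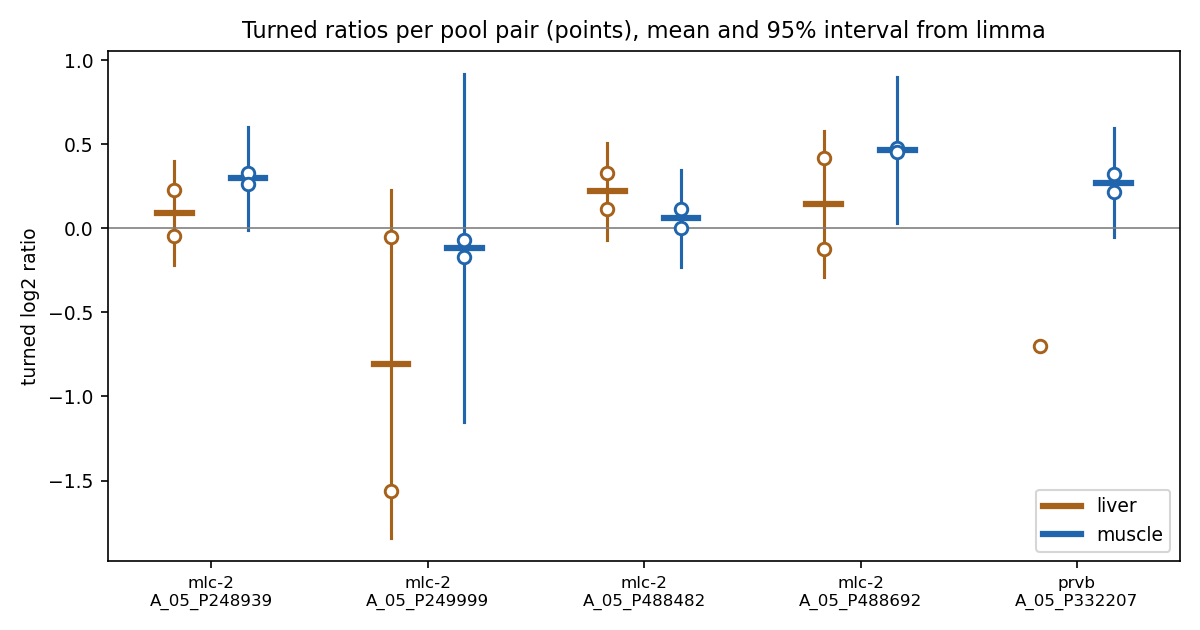
Turned log2 ratio (y axis) per probe (x axis), in brown for liver and blue for muscle; points are pool pairs, thick bars means of 2 pool pairs and lines 95% intervals from limma, and prvb has 1 liver pool pair and no interval. The muscle points of A_05_P488692, at 0.47 and 0.46, nearly coincide, while the liver points of A_05_P249999 are -0.05 and -1.56.

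The liver ratio was then set against the muscle ratio for the 4 mlc-2 probes with values on all 8 arrays. The difference, liver minus muscle, was -0.69 for A_05_P249999 with a 95% interval of -2.15 to 0.78. It was -0.32 for A_05_P488692 (-0.93 to 0.29), -0.21 for A_05_P248939 (-0.64 to 0.23) and 0.16 for A_05_P488482 (-0.25 to 0.57). Each interval includes 0 and also differences as large as the muscle ratios themselves. The adjusted p ran from 0.643 to 0.706 in limma, and 0 of the 4 passed, as did 0.0% of the 34757 probes tested. At an unadjusted p under 0.05 there were 0 of the 4, against 8.97% of all probes. After scaling the arrays to one spread, A_05_P488692 alone was under it (0.0293 in limma, adjusted p 0.649), as were 2663 of 34757 probes. Leaving out 1 pool pair moved the difference to between -0.59 and -0.05 for A_05_P488692, -0.34 and -0.07 for A_05_P248939 and 0.05 and 0.27 for A_05_P488482. For A_05_P488692 it was -0.64 on the forward arrays (unadjusted p 0.0175 in limma, adjusted p 0.488) and -0.0048 on the reverse arrays. On the forward arrays 3841 of 37539 probes had an unadjusted p under 0.05. With the values taken as already turned, the differences were 1.19, -0.32, 0.07 and -0.14 in the same order, so that only A_05_P488692 kept its sign.

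**Figure D3:**
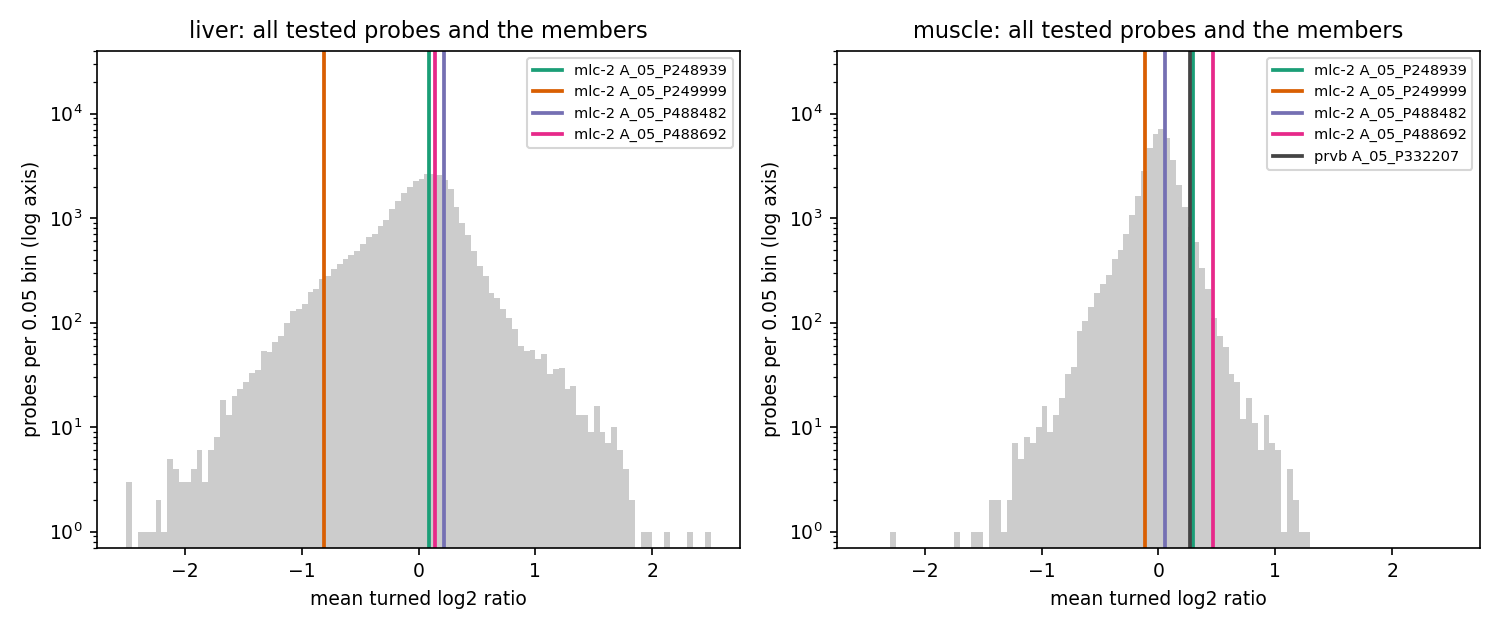
Number of probes (y axis, log scale) by mean turned log2 ratio (x axis, bins of 0.05, values beyond 2.5 in size in the end bins) in liver and muscle, with a vertical line for each mlc-2 or prvb probe tested. In muscle 3 lines lie between 0.27 and 0.47, in the positive flank of the distribution, and in liver 3 of the 4 lie near its centre.

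The probes of mlc-2 agreed only in part. In muscle the highest and lowest turned mean were 0.47 and -0.12, a spread of 0.58 on the log2 scale. Per pool pair the spread was 0.54 in replicate 1 and 0.62 in replicate 2, with 3 of 4 probes positive in each. The gap between probes thus recurred in both pool pairs once turned. Its end probes were picked as highest and lowest from these same means, so their SDs of 0.01 and 0.07 are no yardstick for it. The standard errors of these 2 probes in limma were 0.16 and 0.38. As deposited, their SDs were 0.10 and 0.27, and the mean spread per pool pair over all 4 mlc-2 probes was 0.39. In replicate 2 the end probes as deposited were others, A_05_P488482 at 0.40 and A_05_P248939 at 0.05. The difference between probes itself was not tested. In liver the spread was 0.35 in replicate 1 and 1.98 in replicate 2, where A_05_P249999 alone made it large. On single liver arrays as deposited the spread was 0.37, 0.60 and 0.39, and 4.06 on the array with the value of 3.39.

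The accession in the annotation did not sort the probes. The root mean square difference of deposited log2 ratios over the 8 arrays was 0.32 between A_05_P248939 and A_05_P488482, which share an accession. Between A_05_P249999 and A_05_P488692, which share the other, it was 1.52, the largest of the 6 pairs. In the 4 muscle arrays alone that pair was also the farthest apart, at 0.68. The closest pair in muscle was A_05_P248939 with A_05_P488692, at 0.31, although they come from different accessions.

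Other symbols with several probes gave a scale for these differences. Over the 4 muscle arrays, the median root mean square difference of the 6 mlc-2 pairs was 0.39, beside 0.39 for 49 probe pairs of 28 other symbols and 0.49 for pairs of different symbols. Over the 4 liver arrays it was 1.08 for mlc-2 beside 0.69 and 0.81. The 3 liver pairs without A_05_P249999 lay at 0.27, 0.28 and 0.45, and the 3 with it at 1.70, 1.87 and 2.04. By turned means in muscle, 5 of the 32 symbols with several tested probes had a larger spread than the 0.58 of mlc-2, and the median of the others was 0.27. In liver 2 of 29 symbols exceeded the 1.03 of mlc-2. A spread from highest to lowest grows with the number of probes, and all but 1 of the other symbols had 2 or 3. The other symbol with 4 probes, the placeholder LOC100136565, had a spread of 0.84 in muscle and 0.99 in liver. Probes of one symbol share RNA and arrays, so these numbers describe this set of arrays and are not a test.

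**Figure D4:**
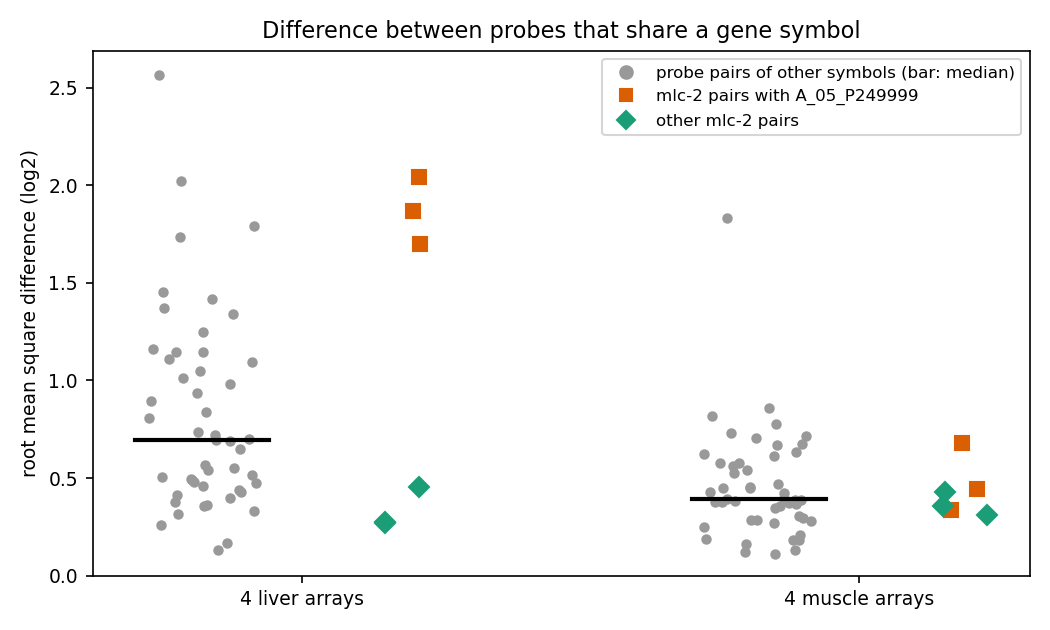
Root mean square difference of deposited log2 ratios (y axis) between probes that share a symbol, over the 4 liver and the 4 muscle arrays (x axis); grey points are pairs of other symbols with their median as a bar, orange squares mlc-2 pairs with A_05_P249999 and green diamonds the other mlc-2 pairs, of which 0.27 and 0.28 coincide in liver. In liver the squares lie at 1.70 to 2.04, far above the diamonds, whereas in muscle all mlc-2 pairs lie between 0.31 and 0.68.

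The named probe with the most similar pattern was in no case an mlc-2 or prvb probe. For each mlc-2 probe, 97 other named probes with values on all 8 arrays were ranked by root mean square difference. Of 64 contractile and calcium symbols listed, only mlc-2 and prvb were in the annotation, and prvb has an empty liver cell. Other mlc-2 probes were thus the only listed contractile candidates in these rankings. The rankings therefore cannot show whether mlc-2 resembled other contractile genes. The nearest other genes of A_05_P248939 were ifna2 (0.20), an interferon, hba (0.21), an alpha globin, and fxyd7 (0.22). Those of A_05_P488482 were mx1 (0.18), an interferon-induced antiviral protein, ifng (0.23) and the same hba probe (0.25). Those of A_05_P488692 were pparg (0.29), hba (0.35) and fshr (0.41). For A_05_P249999 they were fxyd8 (0.56), tap2a1 (0.89) and igfbp6 (1.03), all at larger distances.

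Another mlc-2 probe held rank 3 for A_05_P488692, but the best rank of another mlc-2 probe was 16 for A_05_P248939, 17 for A_05_P488482 and 21 for A_05_P249999. With prvb, which was compared over its 7 arrays by a choice made after its values were seen, the nearest of 100 named probes were psmb9b (0.59), mx1 (0.61) and alp (0.63), followed by A_05_P488692 of mlc-2 at 0.64. Likeness here is over arrays that share RNA within pool pairs, and small ratios lie close together whatever the gene.

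Of 64 symbols listed for the contractile and calcium apparatus, among them troponins, tropomyosins, actins, myosin heavy chains and the calcium pump of the sarcoplasmic reticulum, mlc-2 and prvb were the only 2 in the annotation. Whether unnamed probes measure the others is unknown. The list of 19 symbols for myogenic factors held regulators that commit cells to muscle and also symbols of myostatin. Of the 19 symbols, 5 were present and tested in muscle, and 0 passed in limma in either tissue. Their turned muscle means were -0.48 ± 0.11 for mrf4, -0.43 ± 0.20 for myod1, -0.10 ± 0.03 for myf5, -0.06 ± 0.07 for myod2 and 0.05 ± 0.34 for pax7. Of these 4 of 5 were negative, while 53.3% of all muscle probes had a positive mean. In limma 2 of the 5 had an unadjusted p under 0.05, mrf4 (0.00738) and myod1 (0.0169), against 4.53% of all muscle probes. As deposited, 3 of these 5 means were positive, so their signs depend on the reading. Those of gdf-8, the myostatin gene that restrains muscle growth, and of myod1c, both added after the annotation was read, were -0.15 ± 0.20 and -0.10 ± 0.08. The adjusted p of all 7 was 1 in limma.

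Markers of other cells were read on the same muscle arrays. The liver cell list had 3 of 12 symbols on the array, alb1, trf and spp2, and 3 of its 5 probes are of trf. Their turned muscle means ran from -0.46 to -0.11, with 5 of 5 negative, while 53.3% of all muscle probes had a positive one. The means as deposited were also negative for 5 of 5, from -0.40 to -0.05. In limma 1 of the 5 had an unadjusted p under 0.05, spp2 (0.0483), against 4.53% of all muscle probes. Of the 5 probes, all but trf A_05_P249269 had 2 positive and 2 negative turned values. As deposited, the muscle pool pairs of alb1 were at 0.66 and -0.93 and those of spp2 at 0.56 and -0.65. The red blood cell list had 1 of 5 symbols, hba, with means of -0.35, -0.23 and 0.24 at its 3 probes. The turned means of the plasma protein probes thus had the opposite sign to most mlc-2 and prvb means in muscle. Their single arrays did not keep that sign, and none of these markers passed in limma. Their part in the muscle ratios was not tested. In these pooled samples, fewer cells of a type and less RNA per cell cannot be told apart.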

How the data were processed

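Pools of small and large trout were compared on 8 arrays of 2 colours each. According to the labels' protocols, Trizol RNA was reduced to mRNA and labelled directly as cDNA. The table deposited by the authors was read as log2 ratios, from the values: 2 to the power of the value lay within 0.05 thousandths of a ratio with 3 decimals for 98.7 to 99.5% of the values between 0.2 and 1 in size, and for 11.0 to 12.8% with the sign turned. Scanner software, background correction, normalization, centring and direction are not given in the sources used here. From 43663 rows, 60 control spots were left out.

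Each pool pair was reduced to the mean of its 2 arrays after turning, and limma 3.58.1 (R 4.3.3) was fitted to the 4 pairs with tissue as the group, two-sided, with Benjamini-Hochberg adjustment over all probes with values on all 4 arrays of a tissue. It left 2 residual degrees of freedom, moderated by 2.21 prior ones. A run on simulated data checked only that mean estimates came close to the planted changes, not the p-values. Named were all probes of mlc-2 and prvb, for each the 3 nearest named probes, and measured members of the lists for contraction, myogenic factors, liver cells and red blood cells. Members and lists were chosen with earlier results of these data known. The precision is limited by 2 pool pairs per tissue.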

Additional observations from a re-analysis of the deposited data

Results flagged for a closer look

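The mlc-2 probe A_05_P249999 had a deposited log2 ratio of 3.39 on the reverse liver array of replicate 2, where the large pool carried the 647 dye, while the other 3 liver arrays gave 0.26 to 0.50. The gap to the nearest value was 0.924 of the whole range, above Dixon's 95% critical value for 4 arrays. After turning, the gap was 0.764 of the range and below that value. In all, 9 groups of 4 arrays were tested in this way, and chance flags about 1 in 20. The 2 arrays of a pool pair hold the same RNA, so the 4 are not independent samples.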

How the results depend on the processing

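Without 1 pool pair, the lone pair of a tissue is assumed to vary like the other tissue. The liver mean of A_05_P249999 then ran from -1.56 (without liver replicate 1) to -0.050, and its liver minus muscle difference from -1.45 to 0.069. Without liver replicate 2, prvb had -0.70 in liver and a difference of -0.97. The liver mean of A_05_P248939 ran from -0.048 to 0.23 and that of A_05_P488692 from -0.12 to 0.42. Counts of probes past the threshold, 0 in each comparison, ran from 0 to 7964 in liver, 0 to 3 in muscle and 0 to 4533 for the difference. With the values taken as already turned, the liver means of A_05_P249999 and A_05_P488692 were 1.13 and -0.053, and the differences of A_05_P248939, A_05_P249999 and A_05_P488482 were 0.07, 1.19 and -0.14. With only the forward arrays, A_05_P249999 had 0.33 in liver and a difference of 0.51. With only the reverse arrays, A_05_P488482 had -0.15 in muscle. The liver value of prvb, -0.70 in replicate 1, was 0.87 as deposited and 0.66 on the forward arrays. The cause of these changes was not tested.

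The count in liver was 2478 with pool pairs as random blocks (correlation -0.149) and 348 with the arrays as separate and a dye term, but arrays of a pair hold the same RNA. In muscle it was 1 after scaling the arrays to one spread and 3 with muscle fitted alone, and no mlc-2 or prvb probe was past the threshold in these 4 fits. Centring the arrays changed no sign or call of these probes, nor did keeping only probes with 8 values for mlc-2, which left out prvb. The mean spread among mlc-2 probes per pool pair, 0.58 in muscle, was 0.39 as deposited, 0.82 after scaling, 0.90 on the forward and 0.45 on the reverse arrays. In liver it was 1.17, or 0.38 on the forward and 2.33 on the reverse arrays, 0.76 after scaling, and from 0.35 to 1.98 without 1 pool pair. With the replicate block, the differences of the mlc-2 probes kept their values (-0.69 for A_05_P249999, adjusted p 0.709) and 0 probes passed. The numbers are not known to pair liver and muscle, and same-numbered deviations correlated with r = 0.067 across probes. No filter on dim spots was possible, since intensities were not used here.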
